A study of Homo sapiens with 4 samples.

Results

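The genes described here are 36 genes of homologous recombination, the Fanconi anaemia pathway and the signalling of broken DNA. They were chosen by name, from a list of gene symbols, and not by their values, although earlier results of these data were known. All 36 were found among the 20263 human Ensembl gene IDs of the count table, and all 36 were among the 13612 genes with enough counts to be tested. RNA was sequenced from MDA-MB-231, an established human cell line from a triple-negative breast cancer. Cells in both groups were grown in the same serum-containing medium for 24 h. The control group received the solvent DMSO and the treated group RB-1, a compound known here by its code name, which the series title describes as derived from ribociclib, a drug against the cell cycle kinases CDK4 and CDK6. The labels give no dose and no genotype, and all 4 libraries, 2 a group, come from this 1 line. Whether the libraries of 1 treatment are separate cultures is not in the labels, so p-values measure the spread between these libraries, which may be technical.

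Homologous recombination repairs a broken chromosome by copying the intact sister chromatid. The MRE11, RAD50 and NBN proteins bind the broken ends and activate the kinase ATM, while the kinase ATR responds to single-stranded DNA. Nucleases then trim each end back to a single strand, BRCA1, PALB2 and BRCA2 prepare the exposed strand, and further proteins help it to find the matching sequence and exchange strands. The Fanconi proteins deal with crosslinks between the strands: a core complex with ubiquitin ligase activity marks the FANCD2 and FANCI clamp, which calls in nucleases. Many of these genes are transcribed mainly in S and G2 phase, when a sister chromatid is present. Inherited loss of several of them predisposes to breast cancer or causes Fanconi anaemia.

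The sequence just before the transcription start was read for 33 of the 36 genes from the RefSeq promoter table (build GRCh38.p14); FANCI, NBN and RAD54B were not matched. The 6 windows of 250 bases below were chosen to show both kinds of content among the steep falls (RAD50, ATR, FANCM and BLM), the single gene that rose (FANCF), and the fallen gene whose window held an E2F sequence (FANCA, a smaller fall). Each is printed 5′ to 3′ on the gene's strand and ends at the base before the annotated start. Capitals mark the letters of a searched motif on either strand.
RAD50 (chr5:132556727-132556976, plus strand): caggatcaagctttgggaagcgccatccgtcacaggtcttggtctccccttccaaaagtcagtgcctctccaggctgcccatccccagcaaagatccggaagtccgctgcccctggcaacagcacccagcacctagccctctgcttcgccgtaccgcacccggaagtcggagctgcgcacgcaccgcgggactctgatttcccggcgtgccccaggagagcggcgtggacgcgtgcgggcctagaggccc
ATR (chr3:142578734-142578983, minus strand): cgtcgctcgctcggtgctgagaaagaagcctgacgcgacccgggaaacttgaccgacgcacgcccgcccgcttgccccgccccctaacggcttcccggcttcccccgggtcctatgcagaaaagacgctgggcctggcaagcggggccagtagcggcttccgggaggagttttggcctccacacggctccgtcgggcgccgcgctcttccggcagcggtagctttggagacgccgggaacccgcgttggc
FANCM (chr14:45135680-45135929, plus strand): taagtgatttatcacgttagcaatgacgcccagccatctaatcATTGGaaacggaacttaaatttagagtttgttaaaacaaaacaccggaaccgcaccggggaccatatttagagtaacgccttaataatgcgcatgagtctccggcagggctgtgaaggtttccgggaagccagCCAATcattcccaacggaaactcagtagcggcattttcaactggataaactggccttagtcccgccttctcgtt
BLM (chr15:90717096-90717345, plus strand): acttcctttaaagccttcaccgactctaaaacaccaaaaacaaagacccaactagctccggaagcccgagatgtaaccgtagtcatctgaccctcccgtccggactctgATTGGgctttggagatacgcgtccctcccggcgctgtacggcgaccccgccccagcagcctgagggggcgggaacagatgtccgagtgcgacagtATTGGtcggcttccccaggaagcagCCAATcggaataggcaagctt
FANCF (chr11:22625824-22626073, minus strand): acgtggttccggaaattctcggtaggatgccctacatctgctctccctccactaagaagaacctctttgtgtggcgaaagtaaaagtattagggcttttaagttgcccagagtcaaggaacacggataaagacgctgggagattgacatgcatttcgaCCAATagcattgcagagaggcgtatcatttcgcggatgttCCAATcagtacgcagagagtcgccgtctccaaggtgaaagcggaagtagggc
FANCA (chr16:89816648-89816897, minus strand): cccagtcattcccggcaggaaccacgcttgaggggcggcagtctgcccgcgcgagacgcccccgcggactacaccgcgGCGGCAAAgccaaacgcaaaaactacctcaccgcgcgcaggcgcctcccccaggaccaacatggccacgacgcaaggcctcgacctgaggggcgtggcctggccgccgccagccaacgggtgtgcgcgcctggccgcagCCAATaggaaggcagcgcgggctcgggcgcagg

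A set of 3 short motifs of cell cycle promoters were searched on both strands: the E2F sequences TTTGGCGC, TTTCCCGC, TTTGCCGC and TTTCGCGC, the CHR sequences TTTGAA and TTCGAA, and the CCAAT box. No letters in the printed windows belong to more than 1 motif. An E2F sequence stood in 2 of the 33 genes' windows (6.06%), against 5.54% of the 10870 tested genes with a window. The first was FANCA, 164 bases before the start, and the other was FANCC. A CHR sequence stood in 4 of 33 (12.1%, against 13.6%) and a CCAAT box in 12 of 33 (36.4%, against 41.3%). For each motif the 33 genes were thus close to the tested genes as a whole. Of the 17 fallen genes with a window 9 held a CCAAT box, and of the 16 others 3 did, which is a description with no test. Of the 6 steepest falls 4 held none of the letters searched: ATR, RBBP8, RAD50 and BRCA2. BLM held 3 CCAAT boxes, and both FANCM and the rising FANCF held 2.

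The libraries held 34122874 to 37754168 counts. Values below are CPM, each gene's share of its library's counts in parts of 1e6, on library sizes scaled by the trimmed mean of M values (TMM). The test between RB-1 and DMSO was edgeR's quasi-likelihood test, with p-values adjusted by Benjamini-Hochberg over all 13612 genes. A gene is said to have fallen or risen when its adjusted p was under 0.05. The line's markers were present: 7 of 8 were abundant, with VIM at 3564 to 5422 CPM, while SPARC had 20 to 33 counts. The luminal marker CDH1 had 0 to 2 counts and ESR1 4 to 23, although KRT19 had 6528 to 14267. The luminal genes GATA3, FOXA1 and PGR were at 1.46 to 21.8 CPM in DMSO and fell 5.80-fold, 11.2-fold and 3.77-fold. KRT19, far more abundant, had a higher estimate that did not pass (log2 0.56 ± 0.26). It was at 187 and 276 CPM in DMSO and at 378 and 303 CPM in RB-1. With the correction for transcript length and GC content described below, PGR stood at a log2 fold change of -0.77 and did not pass. GATA3 at -2.65 and FOXA1 at -3.60 still passed, and KRT19 at -0.10 did not. With 1 library left out and no such correction, GATA3 ran from -3.01 to -1.81. Of the markers of leukocytes, endothelium and fibroblasts, CD3E and DCN had 0 counts, CDH5 0 to 2, LYZ 0 to 7, PTPRC 0 to 22 and PECAM1 23 to 42, while COL1A1 had 177 to 265. Of 8 genes that mark cycling cells 3 fell, among them MKI67, which was 8.65-fold lower, and 5 did not pass, among them PCNA at a log2 fold change of 0.31 ± 0.24 (SE). The 3 were MKI67, TOP2A and CCNA2, at -3.11, -2.94 and -0.74. With the correction for length and GC content MKI67 at -2.27 and TOP2A at -2.19 still passed. CCNA2 at -0.49 did not, while TYMS at -0.56 then passed. The summed level of all 8 was 3032 to 3224 CPM in DMSO and 1192 to 1395 in RB-1, but that of the 6 other than MKI67 and TOP2A was 1070 to 1112 CPM and 948 to 1152 CPM, which overlapped. The part of these markers in the results below was not tested, and in bulk RNA fewer cells in a phase and less RNA per cell cannot be told apart.

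After RB-1, 19 of the 36 genes fell and 1 rose, while 16 did not pass. Over all tested genes 16.1% fell and 12.8% rose. The summed level of the 36 genes was 1322 to 1636 CPM in the DMSO libraries and 691 to 751 CPM in the RB-1 libraries, which did not overlap. Their log2 fold changes ran from -2.66 for ATR and RBBP8 to 1.25 for FANCF, with a median of -1.06, against 0.01 over all tested genes. Of the 19 fallen genes, 18 were at least 2-fold lower, and RAD51C was 1.98-fold lower. Both RB-1 libraries lay below both DMSO libraries for 24 of the 36, against 34.3% of all tested genes, and above both for 5, against 35.3%. All 19 fallen genes were among the 24, so a lack of overlap named below adds nothing to the call of a fallen gene. Among the 16 genes that did not pass, 11 had a lower and 5 a higher estimate. With 2 libraries a group a gene that did not pass is not thereby shown to be unchanged.

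**Figure D1:**
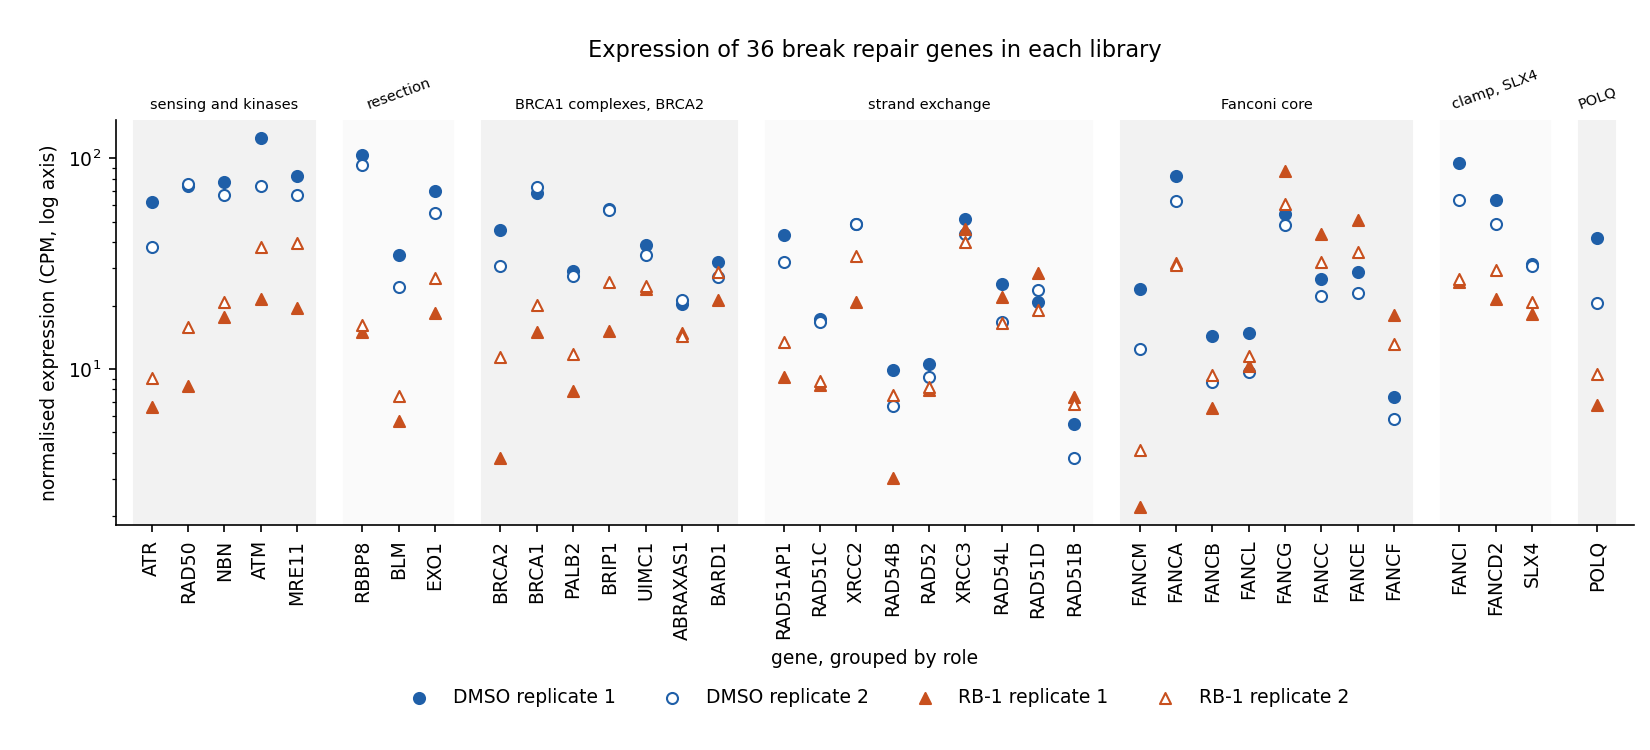
Normalised expression (CPM, log axis) of the 36 genes in each library, grouped by role; circles are DMSO and triangles RB-1, filled for replicate 1 and open for replicate 2. In the sensing and resection groups every triangle lies below both circles, while for FANCC, FANCE, FANCF and FANCG every triangle lies above them.

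**Figure D2:**
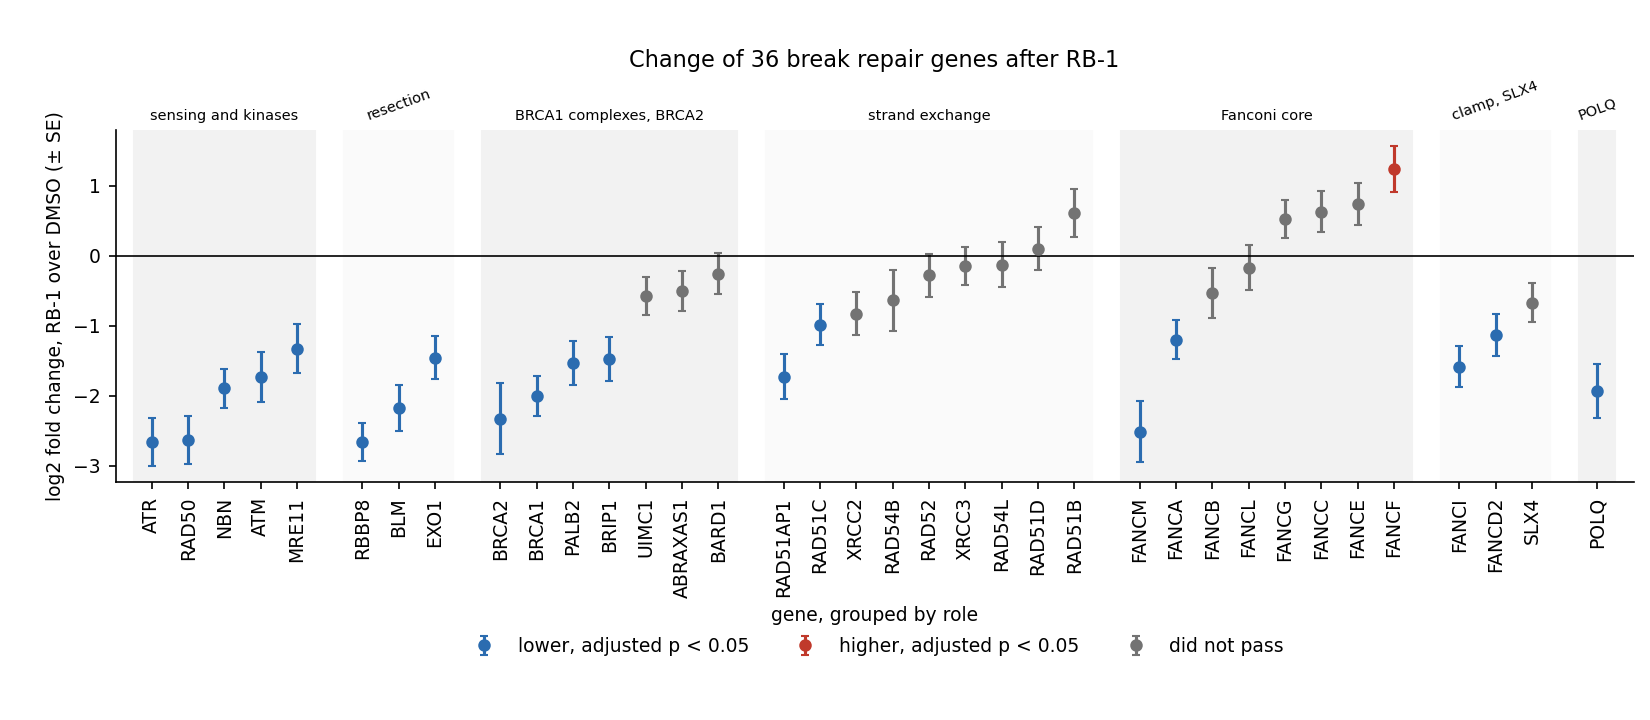
Log2 fold change of RB-1 over DMSO for the 36 genes with its standard error from edgeR (2 libraries a group), coloured by whether the adjusted p was under 0.05. The 19 blue points lie between -2.66 and -0.99, and the 1 red point, FANCF, lies at 1.25.

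All 5 genes of break sensing and the apical kinases fell, where 16.1% of all tested genes fell. Their summed level was 320 to 419 CPM in DMSO and 73.7 to 123 CPM in RB-1, and their median log2 fold change was -1.90. With the correction for transcript length and GC content described below, 3 of the 5 fell, against 15.7% of all tested genes. RAD50, the coiled-coil protein that tethers broken ends, was at 73.9 and 75.2 CPM in the DMSO libraries and at 8.27 and 15.8 CPM in the RB-1 libraries. That is 6.21-fold lower (log2 fold change -2.63 ± 0.35 (SE), edgeR adjusted p = 0.000855). RB-1 replicate 1 was lower than replicate 2, and both were far below DMSO. ATR, the kinase that responds to stalled forks, went from 61.8 and 37.9 CPM to 6.62 and 9.10 CPM. It was 6.34-fold lower (log2 -2.66 ± 0.35, edgeR adjusted p = 0.000822), although its DMSO libraries also differed. NBN, which links MRE11 and RAD50 to ATM, was at 76.7 and 66.9 CPM in DMSO and at 17.7 and 20.8 CPM in RB-1. It was 3.73-fold lower (log2 -1.90 ± 0.28, edgeR adjusted p = 0.00133), with close replicates in both groups.

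The other 2 genes of this group fell less steadily. ATM, the kinase that signals double-strand breaks, was at 124 and 73.8 CPM in DMSO and at 21.5 and 38.1 CPM in RB-1. The difference was 3.32-fold (log2 -1.73 ± 0.36, edgeR adjusted p = 0.00714). MRE11, the nuclease of the complex, was at 82.7 and 66.6 CPM in DMSO and at 19.6 and 39.8 CPM in RB-1, which is 2.52-fold lower (log2 -1.33 ± 0.35, edgeR adjusted p = 0.0194). Among all tested genes 34.3% had both RB-1 libraries below both DMSO libraries, as these 2 genes had. Both lost their call when DMSO replicate 1 was left out (log2 -1.31 for ATM and -1.17 for MRE11) or RB-1 replicate 1 (-1.37 and -0.90), while without RB-1 replicate 2 MRE11 stood at -1.93. RAD50 shares 79.7% of its annotated exon bases with the same-strand gene model AC116366.3, which had 51, 1, 0 and 0 counts, and ATR shares 16.4% with a pseudogene on the other strand. The values of RAD50 and ATR are therefore uncertain through exon overlap.

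All 3 genes of end resection fell, where 16.1% of all tested genes fell. Their summed level was 172 to 209 CPM in DMSO and 39.0 to 50.7 CPM in RB-1. RBBP8 encodes CtIP, the partner of MRE11 that starts the trimming of a broken end. It was at 104 and 92.5 CPM in DMSO and at 14.9 and 16.1 CPM in RB-1. With a 6.32-fold difference (log2 -2.66 ± 0.27, edgeR adjusted p = 0.000303) it had the smallest p of the 36 genes, and its replicates were close in both groups. BLM, the helicase mutated in Bloom syndrome, was at 34.8 and 24.6 CPM in DMSO and at 5.70 and 7.45 CPM in RB-1. It was 4.52-fold lower (log2 -2.17 ± 0.33, edgeR adjusted p = 0.00154). EXO1, the exonuclease that extends the resected tract, went from 69.9 and 55.0 CPM to 18.4 and 27.1 CPM (log2 -1.46 ± 0.30, edgeR adjusted p = 0.00692). For these genes both RB-1 libraries lay below both DMSO libraries, as for 34.3% of all tested genes. Without DMSO replicate 1, EXO1 stood at -1.27 and did not pass.

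Of the 7 genes of BRCA2 and the BRCA1 complexes 4 fell and 3 did not pass, where 16.1% of all tested genes fell. Their summed level was 272 to 292 CPM in DMSO and 102 to 137 CPM in RB-1. BRCA1, the ubiquitin ligase subunit that promotes resection and recruits PALB2, was at 68.4 and 73.0 CPM in DMSO and at 15.0 and 20.2 CPM in RB-1. It was 4.02-fold lower (log2 -2.01 ± 0.29, edgeR adjusted p = 0.00123). BRCA2, which acts on the resected strand, was at 45.6 and 30.9 CPM in DMSO but at 3.79 and 11.4 CPM in the RB-1 libraries, a 5.03-fold difference on average (log2 -2.33 ± 0.51, edgeR adjusted p = 0.0127). Its RB-1 libraries stood further apart than those of any other fallen gene, and its log2 fold change was -1.74 without RB-1 replicate 1 and -3.33 without RB-1 replicate 2, past the threshold in both. PALB2, which joins BRCA1 to BRCA2, went from 29.2 and 27.6 CPM to 7.87 and 11.7 CPM (log2 -1.54 ± 0.31, edgeR adjusted p = 0.00636). BRIP1, the helicase bound to BRCA1, went from 57.2 and 56.8 CPM to 15.1 and 25.9 CPM (log2 -1.48 ± 0.32, edgeR adjusted p = 0.00814). For each of these 4 both RB-1 libraries lay below both DMSO libraries, as for 34.3% of all tested genes.

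BARD1, the obligate partner of BRCA1 in the ubiquitin ligase, did not follow BRCA1 past the threshold. It was at 32.2 and 27.3 CPM in DMSO and at 21.2 and 28.7 CPM in RB-1, so the groups overlapped (log2 -0.26 ± 0.29, edgeR adjusted p = 0.542). The difference between the changes of BRCA1 and BARD1 was not tested. UIMC1, also called RAP80, brings a BRCA1 complex to ubiquitin chains near breaks. Its 38.6 and 34.5 CPM in DMSO and 24.1 and 24.9 CPM in RB-1 did not overlap, yet it did not pass (log2 -0.58 ± 0.27, edgeR adjusted p = 0.135). ABRAXAS1, the scaffold of that complex, was at 20.3 and 21.4 CPM in DMSO and at 14.9 and 14.4 CPM in RB-1 (log2 -0.51 ± 0.28, edgeR adjusted p = 0.199). Its value is uncertain: 25.2% of its exon bases overlap MRPS18C on the other strand, which stood at 1.15 ± 0.30 on the log2 scale, and the sources used here do not say whether counting used strand.

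Of the 9 genes that help in strand exchange 2 fell and 7 did not pass, where 16.1% of all tested genes fell. Their summed level was 202 to 233 CPM in DMSO and 153 to 155 CPM in RB-1, with no overlap. RAD51AP1, which stimulates strand exchange, was at 43.2 and 32.2 CPM in DMSO and at 9.19 and 13.5 CPM in RB-1. It was 3.32-fold lower (log2 -1.73 ± 0.32, edgeR adjusted p = 0.00424), with no overlap. RAD51C, which works in complexes with RAD51B, RAD51D, XRCC2 and XRCC3, went from 17.2 and 16.7 CPM to 8.37 and 8.76 CPM (log2 -0.99 ± 0.30, edgeR adjusted p = 0.0313). Its replicates were close, but it passed in none of the 4 fits with 1 library left out, where its log2 fold change was -1.02 to -0.95. XRCC2, from the same complexes, was at 48.8 and 48.9 CPM in DMSO and at 20.8 and 34.2 CPM in RB-1, with no overlap, and did not pass (log2 -0.83 ± 0.31, edgeR adjusted p = 0.0671). XRCC2 stood at -1.23 without RB-1 replicate 2 and at -0.51 without RB-1 replicate 1. RAD54B, whose RB-1 libraries were at 3.05 and 7.56 CPM, stood at -1.44 and -0.12 in the same fits.

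The other helpers lay closer to no change. RAD51B, at 5.50 and 3.78 CPM in DMSO and 7.39 and 6.84 CPM in RB-1, had a higher estimate with no overlap (log2 0.61 ± 0.34, edgeR adjusted p = 0.197). RAD51D stood at 0.10 ± 0.31 and XRCC3 at -0.14 ± 0.27 on the log2 scale. RAD51B, RAD51C, RAD51D, XRCC2 and XRCC3 thus had estimates of both signs, although their proteins work in shared complexes. RAD52, an annealing protein, stood at -0.28 ± 0.31. The motor proteins RAD54L and RAD54B, which move along DNA during strand exchange, stood at -0.13 ± 0.32 and -0.64 ± 0.44. Of these values 3 are uncertain through exon overlap: XRCC3 shares 76.7% of its exon bases with KLC1 and RAD54L 25.1% with LRRC41, both on the other strand, and RAD54B shares 59.1% with FSBP on its own strand. FSBP itself fell by 1.69 ± 0.38 on the log2 scale, while KLC1 stood at 0.06 ± 0.22.

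The Fanconi core complex was the group with changes in both directions: of its 8 genes 2 fell, 1 rose and 5 did not pass, where 16.1% of all tested genes fell and 12.8% rose. Its summed level, 193 to 253 CPM in DMSO and 198 to 251 CPM in RB-1, overlapped. The median log2 fold change was 0.18 and the mean -0.16, so these differed in sign. FANCM, the translocase that anchors the core complex on DNA, was at 24.0 and 12.4 CPM in DMSO and at 2.23 and 4.14 CPM in RB-1. It was 5.72-fold lower (log2 -2.52 ± 0.43, edgeR adjusted p = 0.00329). FANCA, the subunit most often mutated in Fanconi anaemia, went from 82.5 and 62.9 CPM to 32.0 and 31.3 CPM (log2 -1.20 ± 0.27, edgeR adjusted p = 0.0102). Neither gene overlapped between the groups, but FANCA did not pass without DMSO replicate 1, at -0.99. FANCF, an adaptor within the core, was the single gene that rose, from 7.39 and 5.80 CPM to 18.1 and 13.2 CPM. It was 2.37-fold higher (log2 1.25 ± 0.33, edgeR adjusted p = 0.0184). That call held in 1 of the 4 fits with a library left out, without RB-1 replicate 2, and was lost without either DMSO library (1.43 without replicate 1 and 1.10 without replicate 2) and without RB-1 replicate 1 (1.01).

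Among the other core genes FANCE, FANCC and FANCG had higher estimates that did not pass, while FANCA, FANCM, FANCB and FANCL had lower ones. FANCE, which contacts FANCD2, was at 28.8 and 23.0 CPM in DMSO and at 51.1 and 35.8 CPM in RB-1 (log2 0.74 ± 0.30, edgeR adjusted p = 0.0857). It stood at 0.98 without RB-1 replicate 2 and at 0.47 without RB-1 replicate 1. FANCC, bound to FANCE, stood at 0.63 ± 0.29 and FANCG, bound to FANCA, at 0.52 ± 0.28 on the log2 scale. In all 3, as in FANCF, both RB-1 libraries were above both DMSO libraries, which was so for 35.3% of all tested genes. FANCB stood at -0.53 ± 0.36 and FANCL, the ligase subunit, at -0.17 ± 0.33, and both overlapped. The values of FANCA, FANCL and FANCF are uncertain through exon overlap. FANCA shares 23.6% of its exon bases with ZNF276, FANCL 18.7% with VRK2 and FANCF 11.3% with GAS2, each on the other strand. VRK2 fell by 1.38 ± 0.31, ZNF276 stood at -0.23 ± 0.49, and GAS2 was under 1 CPM in each library.

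Downstream of the core, the clamp genes FANCI and FANCD2 fell, where 16.1% of all tested genes fell. FANCI was at 94.5 and 63.3 CPM in DMSO and at 25.9 and 26.7 CPM in RB-1 (log2 -1.58 ± 0.29, edgeR adjusted p = 0.00412). FANCD2, its partner, was at 63.3 and 49.0 CPM in DMSO and at 21.5 and 29.6 CPM in RB-1, which is 2.20-fold lower (log2 -1.14 ± 0.30, edgeR adjusted p = 0.0176). In both genes both RB-1 libraries lay below both DMSO libraries, as for 34.3% of all tested genes. The call of FANCD2 held only without RB-1 replicate 2 among the 4 fits with a library left out, and was lost without either DMSO library (-0.94 without replicate 1 and -1.29 without replicate 2) and without RB-1 replicate 1 (-0.92). SLX4, the scaffold that gathers the nucleases, was at 31.5 and 30.9 CPM in DMSO and at 18.2 and 20.9 CPM in RB-1. It did not overlap and did not pass (log2 -0.67 ± 0.28, edgeR adjusted p = 0.0937).

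POLQ encodes polymerase theta, which joins resected ends through short matching sequences and so competes with recombination. It was at 41.7 and 20.7 CPM in DMSO and at 6.73 and 9.51 CPM in RB-1. The DMSO libraries differed by a factor of 2.02, and both lay above RB-1. The gene was 3.84-fold lower (log2 -1.94 ± 0.39, edgeR adjusted p = 0.00588). Leaving out DMSO replicate 1 (-1.35) or RB-1 replicate 1 (-1.70) ended this call.

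Levels were compared between genes as CPM per kilobase of the longest annotated coding transcript. In DMSO the highest group mean was that of RBBP8, at 29.8 CPM per kb, followed by FANCG at 19.5 and EXO1 at 18.0, and the lowest was RAD51B at 1.79. In RB-1 the highest was FANCG, at 28.1 CPM per kb, followed by FANCE at 17.0 and XRCC3 at 14.3, while RBBP8 was in place 15 at 4.72. FANCM was lowest in RB-1 at 0.447 CPM per kb, next to BRCA2 at 0.635 and POLQ at 0.896. FANCE was in place 13 in DMSO and in place 2 in RB-1, which describes ranks and is no test, since neither FANCE nor FANCG passed.

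Across the table, long transcripts had lower fold changes, and many of these genes are long. The median length was 4441.5 bases for the 36 genes and 3376.5 for all tested genes, and it was 5451 for the 19 that fell and 3042.5 for the 16 that did not pass. In the longest quartile, from 5194 bases up, 12 of 15 genes fell, against 31.5% of all tested genes of that quartile, with a median log2 fold change of -1.73 against -0.47. The exceptions there were BARD1, SLX4 and RAD51D. In the quartile from 3377 to 5193 bases 4 of 6 fell, against 17.2% of all, and in that from 2147 to 3376 bases 3 of 14 fell, against 10.7%. RBBP8 and RAD51AP1, both in that shorter quartile, fell as steeply as much longer genes. Across the 36 genes the Spearman correlation of log2 fold change with length was -0.55 and with GC content 0.55, and across 13596 tested genes it was -0.38 and 0.30. These are descriptions across genes, which share the same 4 libraries.

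**Figure D3:**
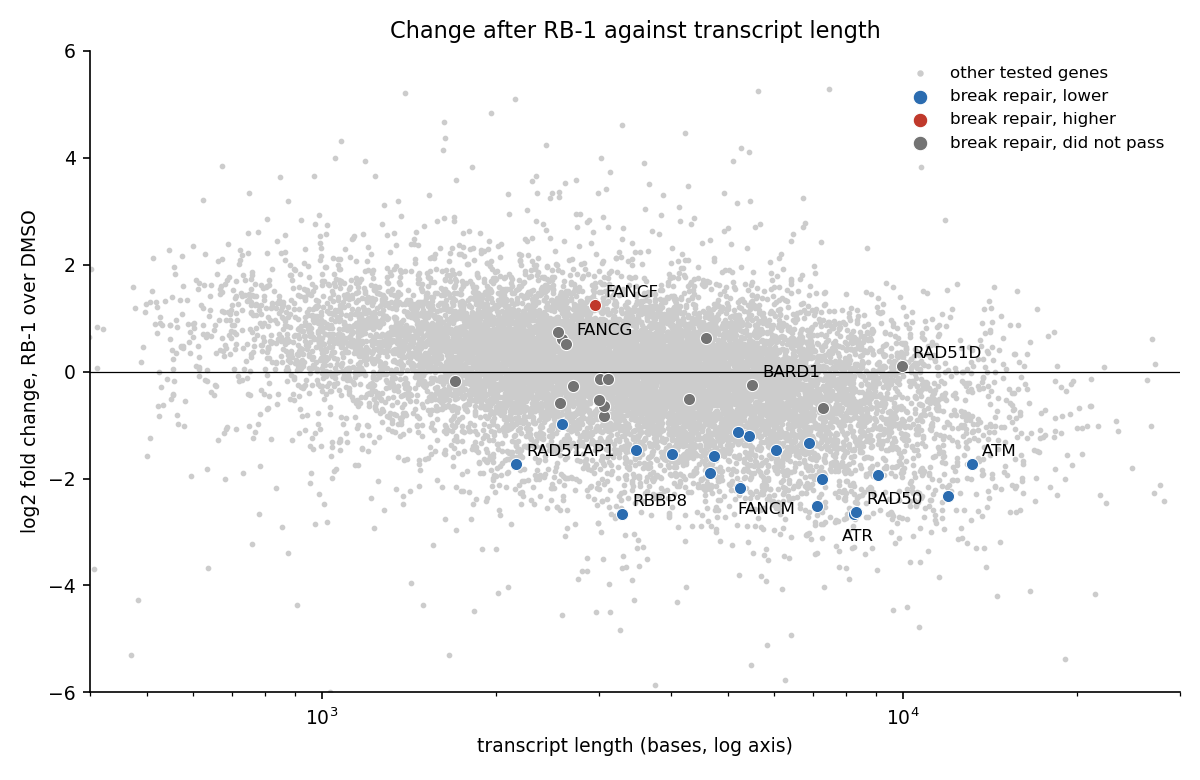
Log2 fold change of RB-1 over DMSO against the length of the longest coding transcript (bases, log axis); grey dots are other tested genes, of which 84 lie outside the axes, and large dots are the 36 genes. The fallen genes lie in the lower part of the cloud, RBBP8 and RAD51AP1 among the shorter ones and ATM and ATR among the longer.

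The libraries also differed along length within a group. Over all tested genes, the difference between RB-1 replicate 1 and replicate 2 had a Spearman correlation of -0.44 with length, and that between the DMSO replicates 0.11. Of the 19 fallen genes 18 were lower in RB-1 replicate 1 than in replicate 2, with a median ratio of 0.708, and 17 were higher in DMSO replicate 1 than in replicate 2. Over all tested genes 50.5% were lower in RB-1 replicate 1, with a median ratio of 0.994, and 57.7% were higher in DMSO replicate 1. The same contrast was therefore run with an offset per library for length and GC content. With it 18 of the 36 genes fell and 2 rose, against 15.7% and 16.9% of all tested genes, and 17 of the 19 fallen genes were shared. ATM, at -0.53, and MRE11, at -0.59, no longer passed, while UIMC1 at -0.61 now fell and FANCC at 0.73 rose beside FANCF at 1.36. The median of the 36 genes moved from -1.06 to -0.60, against 0.04 over all genes.

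Of the 12 fallen genes in the longest quartile 10 still passed, with smaller changes. With the correction ATR stood at -1.71, RAD50 at -1.80, FANCM at -1.73 and BLM at -1.58 on the log2 scale. BRCA2 stood at -1.40, BRCA1 at -1.24, POLQ at -0.95 and BRIP1 at -0.85, all of them past the threshold and each more than 1.5-fold nearer to no change than without it. The fall of RBBP8, at -2.26, was then the steepest of the 36, and RAD51AP1 at -1.67 was close to its uncorrected value. BARD1 turned from -0.26 to 0.37 and RAD51D moved from 0.10 to 0.87, and neither passed in either fit. Across the 36 genes the correlation with length was still -0.35, and over all genes it was 0.01. How much of the uncorrected difference belongs to the libraries and how much to the treatment cannot be told apart here.

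**Figure D4:**
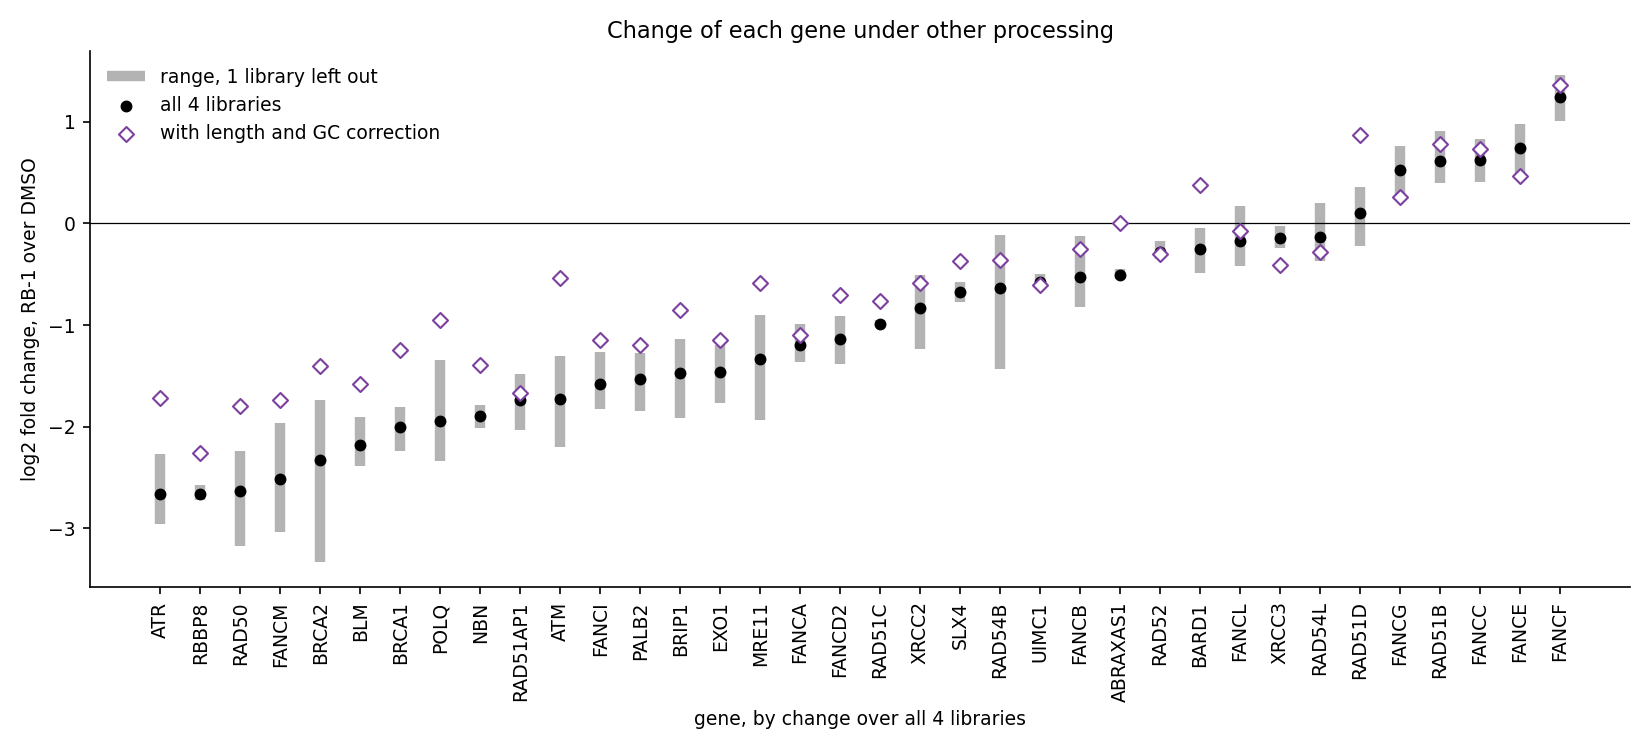
Log2 fold change of each of the 36 genes over all 4 libraries (black), with the correction for length and GC content (open diamonds) and as the range over the 4 fits with 1 library left out (grey bars), ordered by the first. BRCA2 has the widest bar, from -3.33 to -1.74, and the diamonds of ATM and MRE11 lie at -0.53 and -0.59.

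Leaving out 1 library left a lone sample in its group, which was assumed to vary like the other group, and moved the count of fallen genes between 12 and 20. It was 12 without DMSO replicate 1, where 9.78% of all tested genes fell, and 17 without the other DMSO library. It was 14 when RB-1 replicate 1 was left out and 20 when replicate 2 was. The 7 lost without DMSO replicate 1 were ATM, EXO1, FANCA, FANCD2, MRE11, POLQ and RAD51C. In all 4 of these fits 12 of the 19 genes fell: ATR, RAD50, NBN, RBBP8, BLM, BRCA1, BRCA2, PALB2, BRIP1, RAD51AP1, FANCM and FANCI. At least 1 gene of every role group other than polymerase theta is among them. The share over all tested genes is given here only for the fit without DMSO replicate 1. The other counts therefore do not show whether these genes or the whole table moved.

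A further 50 genes of the same processes were listed by their known roles. Of these 49 were tested, and DMC1, the meiotic recombinase, had 1 to 4 counts. Among the 49, 11 fell and 2 rose, with a median log2 fold change of -0.30, against 16.1% lower and 12.8% higher over all tested genes. With upper-quartile factors these counts were 8 and 3, with library totals alone 7 and 2, and with the correction for length and GC content 7 and 4. TOPBP1, the activator of ATR, was at 153 and 118 CPM in DMSO and at 18.4 and 26.6 CPM in RB-1, which is 6.02-fold lower (log2 -2.59 ± 0.30, edgeR adjusted p = 0.000448). It had the smallest p of this list and a fall close to that of ATR. RIF1, which with TP53BP1 protects ends from resection, went from 126 and 85.1 CPM to 26.4 and 35.8 CPM (log2 -1.76 ± 0.30, edgeR adjusted p = 0.00277). TP53BP1 went from 82.3 and 57.8 CPM to 23.3 and 29.2 CPM (log2 -1.42 ± 0.30, edgeR adjusted p = 0.00692). With the correction for length and GC content neither RIF1, at -0.52, nor TP53BP1, at -0.60, passed. TP53BP1 also did not pass without DMSO replicate 1, at -1.14, and 28.7% of its exon bases overlap TUBGCP4 on the other strand, which fell by 1.54 ± 0.29.

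USP1 removes the ubiquitin that the Fanconi core puts on the clamp, and it fell with the clamp genes. It went from 144 and 101 CPM to 38.6 and 51.4 CPM (log2 -1.44 ± 0.28, edgeR adjusted p = 0.0053). The other 7 that fell, named after their values were seen, were MMS22L, BRCC3, GEN1, WDR48, RFWD3, DNA2 and MDC1, at log2 fold changes from -1.67 to -0.75. With the correction for length and GC content MMS22L and WDR48 still passed, at -0.70 and -0.66. BRCC3, GEN1, RFWD3, DNA2 and MDC1 did not, at -1.37, -0.68, -0.47, -0.54 and -0.56. WDR48 is the cofactor of USP1, and GEN1 cuts the crossed strands left by recombination. RPA3, the small subunit of the protein that coats single-stranded DNA, rose from 27.7 and 20.4 CPM to 93.3 and 50.1 CPM (log2 1.58 ± 0.34, edgeR adjusted p = 0.00871). SFR1, a cofactor of strand exchange, rose from 13.6 and 10.7 CPM to 29.2 and 29.9 CPM (log2 1.28 ± 0.29, edgeR adjusted p = 0.0102). Both lost their call without DMSO replicate 2 (1.39 and 1.14), and RPA3 also without RB-1 replicate 1 (1.07).

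The kinases that act below ATR and ATM did not pass. CHEK1, the target of ATR, was at 55.5 and 51.7 CPM in DMSO and at 32.4 and 35.2 CPM in RB-1, with no overlap (log2 -0.67 ± 0.27, edgeR adjusted p = 0.083). CHEK2, the target of ATM, was at 12.3 and 10.2 CPM in DMSO and at 20.8 and 17.9 CPM in RB-1, also with no overlap and in the other direction (log2 0.79 ± 0.30, edgeR adjusted p = 0.0712). CHEK2 passed with DESeq2, with upper-quartile factors and with the correction for length and GC content, at 0.78, 0.89 and 0.68. With that correction CHEK1 stood at -0.21 and did not pass. H2AX, the histone that the kinases mark around a break, stood at -0.43 ± 0.27 and did not pass, but passed at -1.07 with the correction for length and GC content. The differences between these genes' changes were not tested.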

How the data were processed

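RNA was measured in 4 libraries of MDA-MB-231 cells, 2 with DMSO and 2 with RB-1, and grouped by their titles. Per the labels' protocols, an mRNA library kit was used on total RNA. The authors deposited a table of raw whole-number counts for 20263 human Ensembl IDs, with totals of 34122874 to 37754168 counts a library. Aligner, counter, annotation and strand setting: not given in the sources used here. Mouse builds stand in the submitters' processing notes although all IDs are human, which leaves the build used for counting unsettled. Symbols matched 20148 IDs. A read in exons shared by 2 genes depends on the counting, so members sharing at least 10% of their exon bases with a neighbour (GENCODE 29) are marked as uncertain.

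Genes were kept by filterByExpr, scaled by TMM (factors 0.868 to 1.10) and tested with the quasi-likelihood F test of edgeR 4.0.16 (R 4.3.3; robust, two-sided) with Benjamini-Hochberg adjustment over 13612 genes and a threshold of 0.05. Each gene had 2 residual degrees of freedom before sharing, and the common biological coefficient of variation was 0.251. A standard error is the log2 fold change divided by the square root of F. Replicate libraries differed far beyond sampling noise (chi-square per degree of freedom 257 in DMSO and 128 in RB-1), so each was kept. Lengths and GC content (20224 IDs) are those of the longest coding transcript in GENCODE 29, which need not be the transcript expressed. Their correction is an offset per library from smooths (mgcv 1.9.3, basis size 8, pseudocount 0.5) that replaces TMM. Alternatives were no scaling beyond library totals, upper-quartile or RLE factors, no filter, a mean count of at least 50, DESeq2 1.42.0, limma-voom 3.58.1, an adjusted p under 0.01, the correction, a replicate block, and leaving out each library. Promoter windows are the 250 bases before each RefSeq start; a gene with several windows held a motif if any did (11 of 33 genes had several).

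The members, the other list and the alternatives were chosen with earlier results of these data known. All members are named; of the other list, up to 4 genes with the smallest p in each direction, CHEK1, CHEK2, TP53BP1 and H2AX are named by rule, with MKI67 and PCNA as companions. Not every gene of that list is reported here.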

Additional observations from a re-analysis of the deposited data

How the results depend on the processing

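The count of 19 fallen genes was the same with RLE or upper-quartile factors, no filter, a mean count of at least 50 and limma-voom; it was 20 with DESeq2 (XRCC2 joined), 18 with the length and GC correction, 16 with library totals alone (FANCD2, MRE11 and RAD51C lost) and 14 at an adjusted p under 0.01 (those 3, BRCA2 and FANCA lost). Leaving out 1 library gave 12 to 20. The count of 1 risen gene became 0 at an adjusted p under 0.01 and 2 with the length and GC correction, and it was 0 to 2 with a library left out; where it was 0, edgeR still gave 1 or 2 higher genes at an unadjusted p under 0.05, and DESeq2 and limma-voom on all libraries each gave 1 at the threshold. Of the 19 genes 11 fell in all 15 alternatives and 13 in every one that kept all libraries. Of the 50 other genes 11 fell; this was 7 with library totals alone, 5 at an adjusted p under 0.01, 7 with the length and GC correction and 5 to 12 with a library left out. The 2 that rose became 1 at an adjusted p under 0.01, 4 with the correction and 0 to 3 with a library left out; where it was 0, edgeR gave 2 at an unadjusted p under 0.05, and DESeq2 on all libraries gave 3.

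Estimates that changed sign were small and did not pass in either fit. With library totals alone RAD54L stood at 0.041, XRCC3 at 0.041 and FANCL at 0.0062; with the correction ABRAXAS1 stood at 0.0077, BARD1 at 0.37 and PCNA at -0.0068. With 1 library left out RAD54L ran from -0.37 to 0.20, FANCL from -0.42 to 0.17 and RAD51D from -0.22 to 0.36. The median log2 fold change of all genes was 0.01 with TMM, 0.12 with upper-quartile factors and 0.21 with library totals alone, so values on the last 2 scales are shifted upward. The cause of these differences was not tested.

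The replicate numbers gave only 2 pairs, and same-numbered libraries did not deviate together across genes (correlation -0.096). With so few pairs this cannot settle whether the numbers pair the samples. With a replicate block 19 of the 36 genes fell and 1 rose, and 13 and 2 of the other genes. With the block and the length and GC correction together 18 of the 36 fell and 2 rose, 7 of the other genes fell and 3 rose, BARD1 stood at 0.37 and PCNA at -0.012. At 84 to 4329 counts a library, the members' precision was set by the spread between libraries more than by depth.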
